A study of Mus musculus with 4 samples.

Results

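The 10 genes described here encode subunits of the Polycomb repressive complexes, and their RNA was read for N6-methyladenosine (m6A) in mouse retinal organoids with and without Mettl3. They were Ezh2, Suz12, Eed, Jarid2, Kdm2b, Bmi1, Ring1, Rnf2, Cbx2 and Pcgf6, 10 of the 15551 annotated features with a listed site inside them on their strand. A site was assigned to a gene when its position and strand fell inside the gene's deposited interval. By this rule the genes held 1389 of the 881997 distinct positions listed in at least 1 library.

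Organoids, tissue grown from mouse stem cells toward retina, were sampled at day 4 of differentiation. The wild-type group was the Rx:GFP line and the knockout (KO) group was the Mettl3 KO Rx:GFP line, with 2 libraries each. Per the labels' protocols the KO line also carried an inducible, HA-tagged METTL3. The treatment label was No for all 4 libraries, which also shared 1 batch label and a differentiation medium with AGN. The labels give no clone, passage or culture for a library, so p-values measure only the spread between these libraries, which may be technical. Mettl3 encodes the enzyme that writes most m6A on messenger RNA. The gene kept its coverage in the libraries labelled KO, at 1.16 and 1.04 times that library's median gene against 1.01 and 0.801 in wild type. The altered part of the gene is not stated in the labels, so this value does not check them.

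Each library was made by GLORI, a chemical method in which unmodified adenosine is deaminated and read as G while m6A is still read as A. The level of a site is the fraction of its reads that stayed A, its coverage is the number of reads with A or G, and every listed site had a level of at least 0.1, at least 15 reads, at least 5 A reads and a deposited p of at most 0.004. A site that is not listed may have missed any of these limits, and the lists do not tell them apart. Wild-type lists had 227298 and 288516 entries at distinct positions and KO lists 230299 and 215850, with a median coverage of 38 to 41 reads per site.

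Polycomb proteins keep developmental genes silent through chromatin, and they are known for holding back lineage genes in stem cells and early neural tissue until these are needed. Polycomb repressive complex PRC2 methylates histone H3 at lysine K27, and PRC1 adds ubiquitin to histone H2A. m6A on a messenger RNA is written mostly near stop codons and in long exons, and it is known for marking transcripts for turnover.

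The PRC2 genes were Ezh2, the methyltransferase itself (chr6:47507073-47572275, minus strand), its core partners Suz12 (chr11:79883932-79924949, plus strand) and Eed (chr7:89603862-89630191, minus strand), and Jarid2, an accessory subunit that helps recruit the complex (chr13:44882950-45075119, plus strand). The PRC1 genes were the ubiquitin ligases Ring1 (chr17:34239766-34243654, minus strand) and Rnf2 (chr1:151333755-151376706, minus strand), their partner Bmi1 (chr2:18681829-18691440, plus strand) and Cbx2, which binds methylated H3 (chr11:118913788-118922096, plus strand). Variant PRC1 was represented by Pcgf6 (chr19:47022056-47039345, minus strand) and Kdm2b, which brings a complex to unmethylated CpG islands (chr5:123008728-123127886, minus strand). Positions are printed as the lists give them.

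The genes kept a similar number of listed sites without Mettl3, but fewer of them had a high level. Listed sites numbered 348 and 435 in wild type and 346 and 359 in KO. The means were 391.5 ± 61.5 and 352.5 ± 9.19 (SD, n = 2 each), and the exact two-sided permutation test gave p = 0.667, where the smallest p that 2 against 2 libraries allow is 0.33. The ranges overlapped, and without the second wild-type library the KO mean was 1.01 times the wild-type count rather than 0.900 times. Counted instead by the gene name deposited with each site, listings numbered 223 and 251 in wild type and 189 and 201 in KO. Those ranges did not overlap, and the KO mean was 0.823 times the wild-type mean (exact permutation p = 0.33, the smallest possible). Among sites covered by at least 50 reads, those with a level between 0.1 and 0.2 numbered 102 and 128 in wild type and 123 and 119 in KO. Those with a level of at least 0.3 numbered 20 and 38 in wild type and 9 and 17 in KO, so the groups did not overlap in this upper range (exact permutation p = 0.33, the smallest possible). Over all sites of the series the same counts were 13243 and 19263 against 6974 and 7599, and the KO mean was 0.448 times the wild-type mean both there and in the 10 genes. Of the member sites, 4 and 14 in wild type and 2 and 4 in KO carried a value shared along the chromosome in place of a gene value. None of those wild-type sites was listed in another library. Member sites with a gene value numbered 16 and 24 against 7 and 13, still without overlap. At a level of at least 0.5 there were 5 and 18 wild-type sites and 0 and 8 KO sites, and here the groups did overlap.

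**Figure D1:**
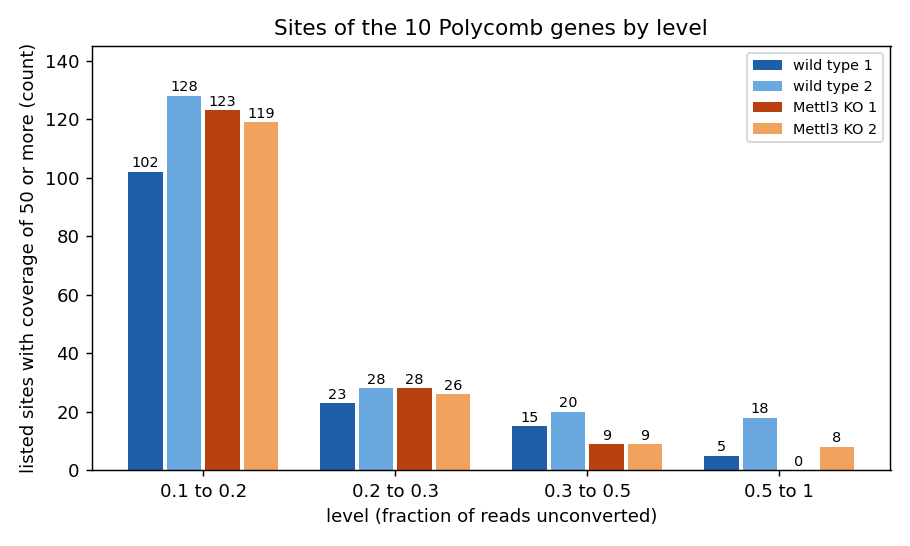
Number of listed sites of the 10 Polycomb genes with a coverage of at least 50 reads (y axis, count) by level (x axis, fraction of reads unconverted), 1 bar per library. The bars are alike below 0.3, and above it each wild-type bar from 0.3 to 0.5 (15 and 20 sites) stands over both KO bars (9 and 9).

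Few high-level sites recurred between libraries, and those that did were mainly wild type. Of the 5 sites with a level of at least 0.5 and coverage of at least 50 in the first wild-type library, 4 were also listed in the second. Of the 18 such sites in the second wild-type library, 7 were listed in the first. The first KO library had none, and none of the 8 in the second KO library was listed in any other library. Those 8 included the highest KO level of Jarid2, at 1.00, of Cbx2, at 0.682, of Kdm2b, at 0.679, and of Ezh2, at 0.608. Over all levels, 1302 of the 1389 positions, or 93.7%, were in a single list, against 91.9% of all positions of the series. The wild-type libraries shared 32 member sites, 4.26% of their joint list, and the KO libraries shared 15, or 2.17%. Pairs made of a wild-type and a KO library shared 13 to 19 sites, or 1.69% to 2.76%.

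The best measured change was in Kdm2b. Its site at position 123009541, 813 bases from the end of the gene, was the only site of the 10 genes listed in all 4 libraries with at least 20 reads in each. Its level was 1.00 (112 reads, Wilson 95% interval 0.967 to 1.00) and 0.932 (117 reads, 0.871 to 0.965) in the wild-type libraries. In the KO libraries it was 0.119 (118 reads, 0.0720 to 0.189) and 0.141 (78 reads, 0.0806 to 0.235). The means were 0.966 ± 0.0483 and 0.130 ± 0.0158 (SD, n = 2 each), so nearly all reads at the site were unconverted in wild type, and the KO levels lay close to the lowest that a list admits. The quasi-likelihood test of edgeR across 1557 sites gave a change of -7.51 on the log2 odds scale with an adjusted p of 0.00158. By that test 2.63% of all sites were lower in KO and none was higher, and 29 sites were higher at an unadjusted p under 0.05. Without the first wild-type library the change was -6.50, and without the second, leaving only the library at 1.00, it was -12.59. The call on the Kdm2b site was lost without either KO library (adjusted p = 0.0942 without the first and 0.0670 without the second) and with limma (adjusted p = 0.111). Summed per gene over such sites, Kdm2b was again the only 1 of the 10 that could be tested, on the same site, with an adjusted p of 0.000394 in edgeR against 5.36% of 821 genes called lower.

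A second Kdm2b site lay 17 bases away, at position 123009558, with levels of 0.230 and 0.271 in wild type from 178 and 207 reads. It was in neither KO list. Expected KO coverage, scaled from the wild-type coverage of the site by the coverage of the gene, was 162 and 165 reads there. A site 9680 bases from the gene end, at position 123018408, was listed at 0.103 and 0.164 in KO and in neither wild-type list.

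In Cbx2 the highest site that both wild-type lists hold, at position 118920818 and 1278 bases from the gene end, had levels of 0.871 (101 reads, interval 0.792 to 0.923) and 0.909 (164 reads, interval 0.855 to 0.944) in wild type. It was in neither KO list, at an expected coverage of 177 and 139 reads. The next site, at 118921349, had levels of 0.354 and 0.285 in wild type and 0.134 in the second KO library (112 reads). At 118919488 the levels were 0.208 and 0.366 in wild type against 0.175 in the second KO library (120 reads), and the intervals of the lowest wild-type and the KO value overlapped (0.145 to 0.289 and 0.117 to 0.253). A site at 118919865 was in both KO lists and in neither wild-type list, at 0.110 and 0.15.

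Bmi1 carried a cluster of sites 2066 to 2228 bases from its end. At position 18689374 the wild-type levels were 0.568 (95 reads, interval 0.468 to 0.663) and 0.845 (161 reads, interval 0.781 to 0.893), intervals that did not overlap between the replicates. The site was in neither KO list, at an expected 132 and 106 reads. Position 18689212 had 0.175 and 0.192 and was in neither KO list. Between them, 80 bases from the first, position 18689294 was unconverted in every read of both wild-type libraries (level 1.00, 29 and 67 reads) and had a level of 0.115 in the first KO library (10 of 87 reads). It was singled out after its values were seen, as was position 18691257, 183 bases from the gene end, with 1.00 and 0.810 in wild type (39 and 79 reads) and no KO listing. Bmi1 had the most shared wild-type sites together with Jarid2, 6 each.

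In Jarid2 the site at 45074945, 174 bases from the gene end, had levels of 0.642 (176 reads, interval 0.569 to 0.709) and 0.725 (193 reads, interval 0.659 to 0.784) in wild type. It was in neither KO list, at an expected 165 and 147 reads. Lower sites at 45049905, with 0.279 and 0.20, and at 45074056, with 0.112 and 0.188, were also in neither KO list. Another high site was found 2003 bases from the gene start (44884953, singled out after its values were seen), at 0.789 and 0.746 from 38 and 71 reads, and it was in neither KO list at an expected 47.5 and 42.4 reads.

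Jarid2 also held the single high site that was alike in all 4 libraries. At 45034888, 40231 bases from the gene end, the levels were 0.920 and 0.900 in wild type and 0.941 and 0.875 in KO. Coverage was 16 to 25 reads, below the minimum of the test, and the site was singled out after its values were seen. The Wilson intervals were wide, from 0.640 to 0.965 for the second KO library, and overlapped across all libraries. At least 1 of its listings carried a coverage value shared along the whole chromosome in place of a gene value, and all are deposited under Gm54544. A KO-only site at 44915263 was listed at 0.107 (159 reads, interval 0.0678 to 0.165) and 0.452 (73 reads, interval 0.343 to 0.566). Those intervals did not overlap between the replicates, and at least 1 of the listings of this site also carried a value shared along the chromosome.

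**Figure D2:**
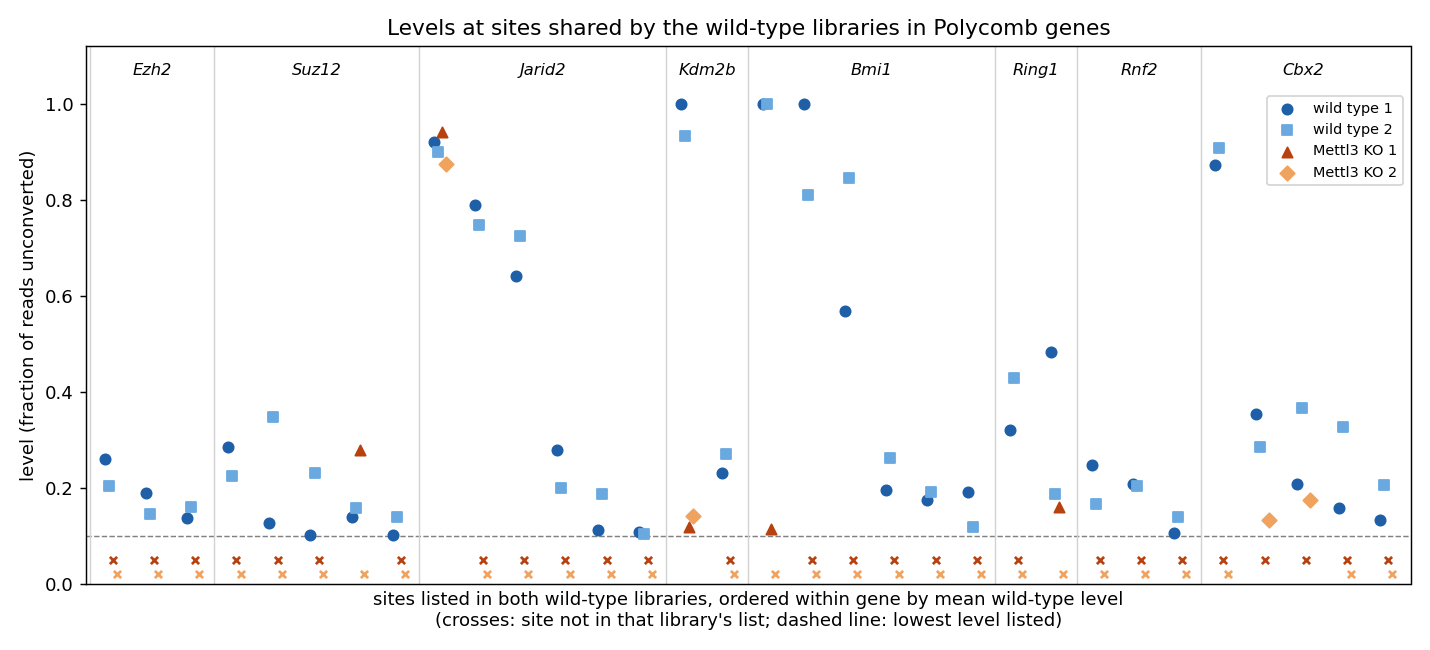
Level of each member site that both wild-type lists hold with at least 20 reads in each (y axis, fraction of reads unconverted; sites along the x axis by gene), 1 symbol per library, with crosses for sites not in a library's list. Most KO symbols are crosses; the Kdm2b site falls from 1.00 and 0.932 to 0.119 and 0.141, and the first Jarid2 site stays between 0.875 and 0.941 in all 4.

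Suz12, Ezh2 and Rnf2 had no shared wild-type site with a mean level of 0.3 or more. In Suz12, position 79923116 had 0.127 and 0.347 in wild type (166 and 147 reads), with intervals that did not overlap between the replicates, and it was in neither KO list. Position 79884376, 444 bases from the gene start, had 0.103 and 0.231 and was in neither KO list. Position 79923810 had 0.139 and 0.157 in wild type and 0.279 in the first KO library (68 reads, interval 0.187 to 0.396), higher than in either wild-type library but with overlapping intervals. A KO-only Suz12 site at 79923533 had 0.141 and 0.113. In Ezh2, position 47571907, 368 bases from the gene start, had 0.190 and 0.145 and position 47554516 had 0.137 and 0.161; neither was in a KO list, where the expected coverage was 33.5 to 48.9 reads.

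Rnf2 had the most deeply covered shared sites of the 10 genes. Position 151346852 had levels of 0.106 (442 reads) and 0.139 (481 reads), position 151346905, 53 bases away, had 0.248 and 0.166, and position 151345430 had 0.208 and 0.203. All 3 were in neither KO list, with an expected coverage of 107 to 439 reads. The wild-type levels of the first of these were close to the lowest level that a list admits.

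In Ring1, position 34241355 had 0.483 (58 reads) and 0.186 (118 reads) in wild type and 0.161 in the first KO library (155 reads), so the second wild-type library lay nearer to the KO value than to its replicate. A KO-only site 19 bases away, at 34241374, had 0.122 and 0.191 (189 and 110 reads). In Eed and Pcgf6 the wild-type libraries had no site in common at 20 reads or more, although their lists held 26 and 30 sites (Eed) and 32 and 21 sites (Pcgf6) in wild type.

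Of the 32 sites shared by the wild-type libraries at 20 reads or more, 25 were in neither KO list, 78.1% (Wilson 95% interval 61.2% to 89.0%, counting error only). Over all genes the share was 82.9% of 22404 sites, so the Polycomb genes lay near the background over all levels. For these shares, all genes means those with at least 1 listed site in each library of the other genotype. By gene, absent from both KO lists were 3 of 3 sites in Ezh2, 4 of 5 in Suz12, 5 of 6 in Jarid2, 1 of 2 in Kdm2b, 5 of 6 in Bmi1, 1 of 2 in Ring1, 3 of 3 in Rnf2 and 3 of 5 in Cbx2. At a mean level of at least 0.3 without a stricter coverage, 6 of 11 member sites were absent (54.5%, interval 28.0% to 78.7%), against 86.0% over all genes. Where both KO libraries had an expected coverage of at least 50, 18 of 23 member sites were absent (78.3%), against 81% over all genes. Among sites with a mean level of at least 0.3 and at least 50 reads, a choice added after seeing the data, 3 of 6 were absent (50.0%, interval 18.8% to 81.2%), against 85.1% over all genes. The other 3 of those 6 were the Kdm2b site at 123009541, the Cbx2 site at 118921349 and the Ring1 site at 34241355, each listed in KO at a lower level than its wild-type mean. In the reverse direction, 9 of 13 sites common to the KO libraries at 20 reads or more were missing from both wild-type lists (69.2%), against 72% over all genes.

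**Figure D3:**
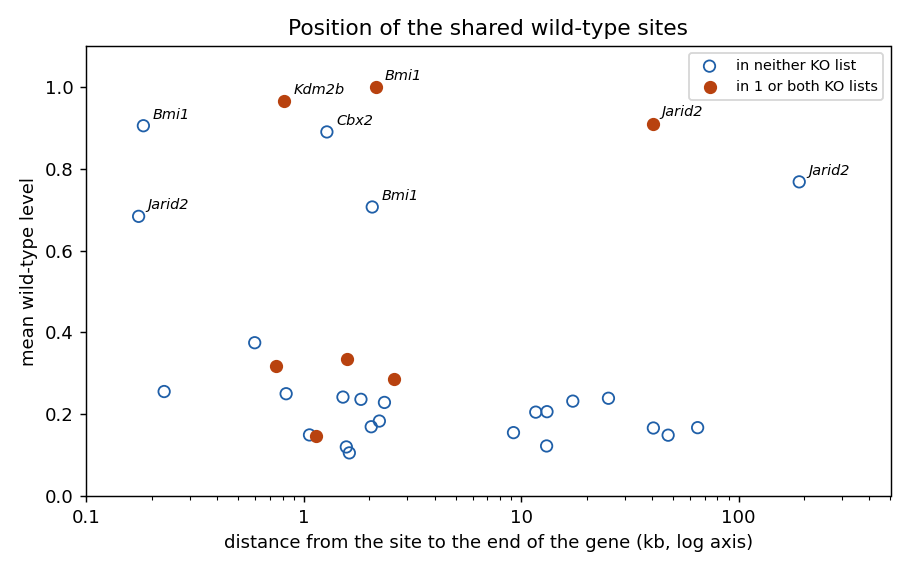
Mean wild-type level (y axis, fraction of reads unconverted) of the 32 sites that both wild-type lists hold against the distance to the end of the gene (x axis, kb, log scale), with open circles for sites in neither KO list and filled circles for sites in 1 or both. Among the sites above 0.5, those of Kdm2b, Cbx2 and Bmi1 and 1 of Jarid2 lie within a few kb of the gene end, and the other Jarid2 sites lie far from it.

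Of the 32 shared wild-type sites, 7 lay within 1000 bases of the gene end, or 21.9%. The share over all shared wild-type sites of the series is not given here. Over all listed member sites the share was 14.1% and 10.3% in wild type and 13.6% and 17.0% in KO, against 19.4% to 23.0% over all genes. The lists mark 59.2% to 61.8% of member sites as inside an intron, against 44.7% to 44.9% of all sites. The mark covered every site of Suz12, Eed and Cbx2 and none of Rnf2, so it was not used to separate exonic from intronic sites. The lists name another feature for many of these sites. Listings inside the gene that carried its own name were 0 of 125 in Kdm2b, 1 of 104 in Eed, 2 of 92 in Rnf2, 13 of 161 in Ezh2, 75 of 338 in Jarid2 and 86 of 112 in Bmi1. In Suz12, Ring1, Cbx2 and Pcgf6 every listing did. The Kdm2b site at 123009541 is deposited under Rnf34, a neighbouring gene on the other strand, and the Jarid2 site at 45074945 under Dtnbp1. Both lie inside Kdm2b and Jarid2 on their strands.

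Counted per gene, sites with a level of at least 0.3 and at least 50 reads were missing from both KO libraries in Ring1, Bmi1 and Eed. Ring1 had 4 and 2 in wild type and 0 and 0 in KO, and Bmi1 had 1 and 6 against 0 and 0. Jarid2 had 4 and 11 against 2 and 7, Ezh2 had 0 and 7 against 0 and 3, and Cbx2 had 3 and 4 against 1 and 3. Kdm2b had 2 and 3 against 1 and 3, Pcgf6 had 3 and 1 against 1 and 0, and Suz12 had 1 and 2 against 3 and 1. Eed had 1 and 2 against 0 and 0, Rnf2 had 1 and 0 against 1 and 0, and both were below the minimum of 4 for the test. Both KO counts were below both wild-type counts in Ring1 and Bmi1, 2 of the 8 tested genes, against 39% of all 4371 genes. The high-level sites of Ring1 did not recur as such between the wild-type libraries. Of its positions in both wild-type lists, 34240361 had 28 and 21 reads, and 34241355 had levels of 0.483 and 0.186.

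The quasi-likelihood test of edgeR called 0 of these genes and 0% of all 4371, of which 583 were lower at an unadjusted p under 0.05. DESeq2 likewise called none. On simulated counts the quasi-likelihood test recovered none of the changed genes, so its result says nothing about stability. The likelihood ratio test of edgeR, added after that was seen, called 8.44% of all genes lower in KO and 1 member, Ring1 (adjusted p = 0.0463). For Bmi1 its adjusted p was 0.0886. In the quasi-likelihood fit the log2 change of Ring1 was -4.64, and -1.34 with the level limit at 0.2. Across the 10 other alternatives that gave Ring1 a value, its adjusted p was 0.243 to 0.984.

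RNA abundance was read from the coverage that the authors deposited for each gene, given here relative to the median gene, which is 1 in each library. It compares libraries for 1 gene, and fewer cells of a type and less RNA per cell cannot be told apart in it. A gene's value was taken from the listed sites inside it on its strand, also where the lists name another feature. By library, 46.2% to 50% of the sites in Eed and 46.4% to 79.4% of those in Ezh2 carried a gene value. The others carried a value shared along the chromosome, which was left out. Limma called none of the 10 genes: 0 were among the 3.41% of 8280 genes lower in KO and 0 among the 3.03% higher at an adjusted p under 0.05. At an unadjusted p under 0.05, 2 of the 10 were lower, against 12.5% of all genes. The log2 change was below 0 in 7 and above 0 in 3, with a median of -0.11 against -0.02 over all genes.

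Ezh2 had the lowest p. Its coverage was 2.25 and 2.40 in wild type and 1.67 and 1.59 in KO, without overlap, a log2 change of -0.51 ± 0.16 (SE) with a limma adjusted p of 0.0825. With only genes above the median coverage tested, its adjusted p was 0.0393. Its PRC2 partner Eed had 2.08 and 1.95 against 1.63 and 1.29, a log2 change of -0.48 ± 0.17 (SE) with a limma adjusted p of 0.124. Suz12, the third core subunit, had 2.08 and 2.10 against 1.87 and 2.07. Jarid2 had 1.37 and 1.45 against 1.26 and 1.30. The 4 PRC2 genes each had both KO values below both wild-type values, in Suz12 by a small margin, as had 29.3% of all genes, and none passed the test.

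Among the PRC1 genes, Cbx2 stood on the other side, at 2.88 and 2.76 in wild type and 3.82 and 3.45 in KO, a log2 change of 0.36 ± 0.17 (SE) with a limma adjusted p of 0.225. Rnf2 had 3.26 and 3.80 against 3.36 and 2.79, and Ring1 had 0.755 and 0.928 against 0.993 and 0.921. Bmi1 had 1.08 and 1.22 against 1.22 and 1.13. Pcgf6 had 1.19 and 1.21 against 1.17 and 1.07, and Kdm2b had 0.997 and 1.07 against 0.878 and 1.03. The groups overlapped in Rnf2, Ring1, Bmi1 and Kdm2b. Both KO values were below both wild-type values in 5 of the 10 genes, against that 29.3%, and above them in 1, against 24.7%.

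**Figure D4:**
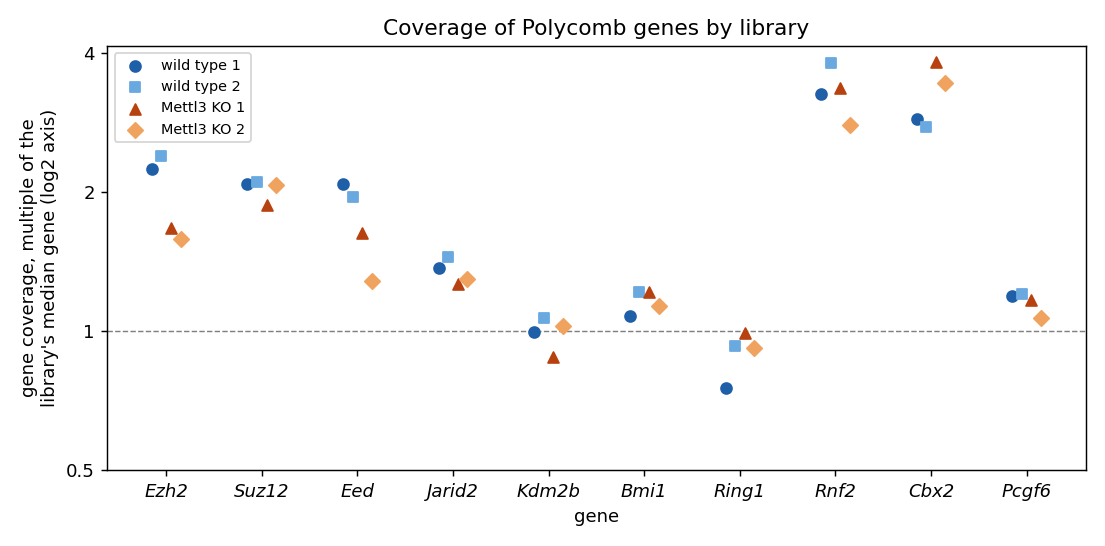
Deposited gene coverage of the 10 Polycomb genes relative to the median gene of each library (y axis, log2 axis; genes along the x axis), 1 symbol per library, with a dashed line at 1. The KO symbols lie under the wild-type symbols for Ezh2 and Eed and over them for Cbx2, and no gene passed the test.

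Of 34 other Polycomb genes chosen for comparison, 25 had a gene coverage in all 4 libraries. None of them was called, 10 had a log2 change below 0 and 15 above, and the median was 0.05. Of the sites shared by the wild-type libraries in these genes, 84 of 98 were in neither KO list, 85.7%.

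The organoids of the groups also differed in listed sites and coverage of markers of regional identity. A count of listed sites depends on level as well as coverage, so it does not measure RNA abundance alone. The 8 eye field markers together had 161 and 211 listed sites in wild type and 102 and 83 in KO, and the 7 markers of roof plate, neural crest and hindbrain had 3 and 5 against 73 and 53. The 6 pluripotency markers had 45 and 48 sites against 19 and 15, and the 5 mesoderm and 5 endoderm markers at most 3 in any library. The 4 neuroectoderm markers had 78 and 75 sites against 70 and 79, but their coverage did not stay alike. Sox2 coverage was 12.1 and 12.6 in wild type against 8.00 and 6.36 in KO, and Hes5 coverage was 2.33 and 1.42 against 3.04 and 3.73. The groups overlapped in the coverage of Sox1 and Nes. The eye field gene Rax had 20 and 35 listed sites in wild type and 0 and 0 in KO, and the coverage of Lhx2 was 4.26 and 4.61 against 0.636 and 0.629 times the median gene. Six3 coverage was also lower in KO, at 16.3 and 17.6 in wild type against 1.81 and 2.45. Pax6 was not: its coverage was 2.22 and 2.23 in wild type against 2.61 and 2.23 in KO, and the groups overlapped. It had 48 and 70 listed sites against 47 and 44. Mab21l2 went the other way, with a coverage of 0.413 and 0.331 against 2.97 and 2.65. The eye field markers Six6, Vax1 and Vax2 had no site in any library. In the roof plate group Lmx1a had 0 and 0 sites against 13 and 18, and Pax3 had 0 and 0 against 36 and 12. Wnt1 had 1 and 1 against 16 and 13, and En1 had 2 and 2 against 7 and 7. Sox10 had 0 and 2 against 1 and 3, where the groups overlapped, and Tfap2a and Hoxb1 had none in any library. The 4 surface ectoderm markers had 18 and 17 sites against 14 and 13. The part of these differences in the coverage of Ezh2, Eed and Cbx2, or in the levels of any site, was not tested.

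The lists also give each gene a conversion rate, the percent of its adenosines read as G, which was compared after the other results were seen. Kdm2b had 93.2% and 93.0% in wild type and 97.0% and 95.0% in KO. Ring1 had 92.9% and 93.2% against 96.7% and 95.2%, and Cbx2 had 95.3% and 95.5% against 97.3% and 96.6%. In these 3 genes both KO values were above both wild-type values, also after centring each library on its median gene, as in 23.3% of all genes. In Eed, Jarid2 and Suz12 both KO values were below both wild-type values after centring on the median gene, as in 27.1% of all genes. Eed had 97.1% and 96.7% against 96.7% and 94.7%. Limma called 0% of 8280 genes and none of the 10, with 1 of the 10 lower at an unadjusted p under 0.05, against 5.07% of all genes.

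**Figure D5:**
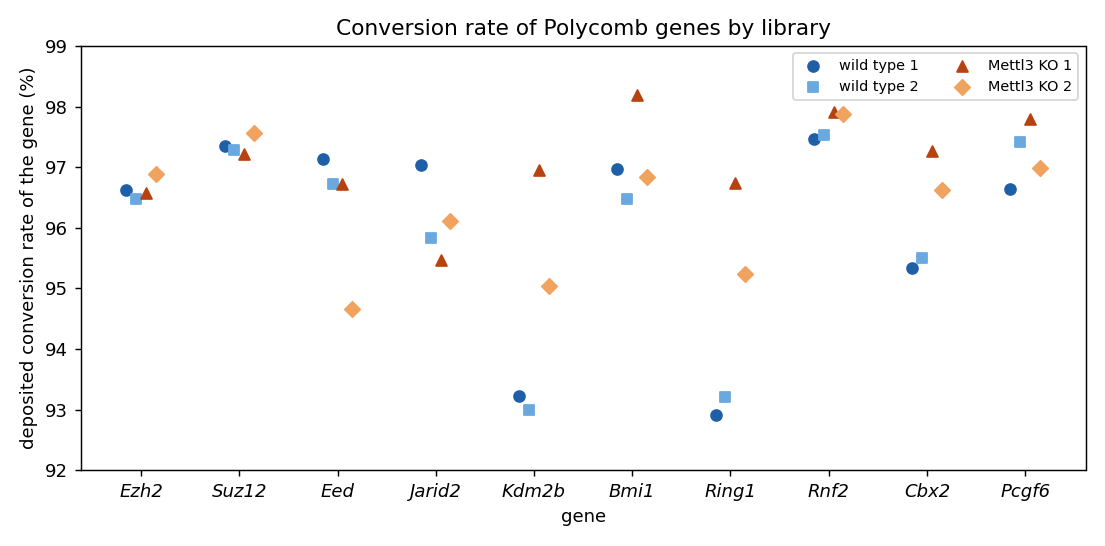
Conversion rate deposited for each of the 10 Polycomb genes (y axis, percent, starting at 92; genes along the x axis), 1 symbol per library. The wild-type symbols of Kdm2b and Ring1 lie near 93 and below the KO symbols, and the remaining genes lie closer together apart from the second KO library of Eed.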

How the data were processed

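GLORI libraries of poly(A) RNA from 2 wild-type and 2 Mettl3 KO organoid samples were analysed, grouped by their titles. Per the file headers, the authors deposited for each library a separate list of sites, with raw counts of A and of A or G reads, the level as a fraction, and a p-value per site. Per the file headers, the authors also deposited a coverage signal and a conversion rate as a fraction for each gene. All listed sites had at least 15 reads, 5 A reads, a level of 0.1 and a p of at most 0.004. Aligner and caller are not given in the sources used here. The submitters' processing notes list mm10, but 96.2% of sites fell on the strand of the deposited gene intervals and only 52.6% on that of the GRCm38 gene table where both intervals are apart, so no position was taken from that table and no site sequence is shown.

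The 28 to 53 repeated entries per list were collapsed. Values spanning a whole chromosome (18.4% to 24.3% of sites) were left out of gene coverage and conversion rate. Site levels (at least 20 reads) and high-level sites (level 0.3, 50 reads, at least 4 per gene) were tested with edgeR 4.0.16, gene coverage and conversion rate (log2 odds, centred on the median gene) with limma 3.58.1, in R 4.3.3 with Benjamini-Hochberg adjustment over all features at 0.05. DESeq2 1.42.0, limma on log2 odds, other thresholds and libraries left out were alternatives. Site counts used an exact two-sided permutation test. Wilson 95% intervals cover counting error only and leave out the spread between libraries. They treat each read as independent, and whether PCR copies had been removed from the deposited counts was not checked.

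Named were all 10 genes, every site in all 4 lists at 20 reads, and per gene up to 3 shared wild-type and 2 KO-only sites at 50 reads, ranked by mean level. Members and lists were chosen with earlier results of these data known. On simulated data the site test recovered 92 of 200 sites whose level was lowered 3-fold in KO (46%). The coverage test recovered 183 of 200 genes changed 2-fold (91.5%, with 8 false calls). The quasi-likelihood test of high-level sites recovered 0 of 172 genes changed 5-fold and 0 of 9 changed 10-fold, and the likelihood ratio test 0 and 6. Same-numbered libraries did not deviate together (r = -0.028 across 8280 genes, which are not independent replicates).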

Additional observations from a re-analysis of the deposited data

How the results depend on the processing

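The lower site count in KO, 0.900 times wild type, rested on the second wild-type library: leaving out single libraries gave 0.810 to 1.01. The other thresholds gave 0.448 to 0.950, and counting by the deposited gene name gave 0.823. Pairing libraries by number, a replicate block, gave 0.910. The share of sites common to the wild-type libraries that KO lists lacked was 100.0% at 200 reads (2 sites). It was 54.5% at a mean level of 0.3 and 50.0% at that level and 50 reads. Over all genes with at least 1 listed site in each KO library these shares were 77.6%, 86.0% and 85.1%. Member sites called lower went from 1 to 0 with limma and without either KO library (range 0 to 1), and with limma the summed Kdm2b level was not called either (0 genes); edgeR's replicate block kept both calls. The likelihood ratio test called 1 member in high-level sites. Testing only genes above the median coverage called 1 member in coverage, Ezh2. Of 98 alternative coverage changes, 95 kept their direction; Bmi1 reversed to -0.078 without centring, and leaving out single libraries gave -0.054 to 0.12. Without centring, the median gene shifted by -0.11 (log2) and 73.4% of coverage calls over all genes were lower in KO rather than 52.9%. Over all genes, coverage calls numbered 533, and 63 to 757 under the alternatives (271 without centring, 70 and 63 without the first and second KO library); other Polycomb genes called numbered 0 to 3. Genes called lower in high-level sites numbered 0, against 369 by the likelihood ratio test, 23 at 200 reads, 15 with library sizes from gene coverage and 2 with TMM. The cause was not tested. The replicate block changed no call on a member. Of 2 member sites in all 4 lists, 1 had at least 20 reads in each.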
